A study of Saccharomyces cerevisiae with 8 samples.

Results

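The proteasome genes of budding yeast were followed across RNA-seq and ribosome profiling in strains lacking MSP1, PEX19 or both. The set holds 36 of the 6668 genes listed: 14 subunits of the 20S core particle, 10 of the base and 9 of the lid of the 19S regulatory particle, the assembly factor UMP1, the activator BLM10 and the transcription factor RPN4. They were chosen by gene name, and each was listed in all 8 libraries. The 4 genotypes, all in the W303 laboratory background, were msp1delta, pex19delta, msp1delta pex19delta and the W303 parent, called wild type here. Cultures were fed 2% glycerol and 2% ethanol in synthetic medium, carbon sources that need respiration, and were harvested after 16 h at an optical density of 2 to 2.5. Msp1 is an ATPase on the mitochondrial surface that pulls out tail-anchored proteins inserted there by mistake, and Pex19 is the cytosolic receptor that delivers peroxisomal membrane proteins. For each genotype there was 1 RNA-seq library and 1 ribosome profiling library, which holds ribosome-protected fragments (RPF, the pieces of mRNA covered by ribosomes), so no difference below has a replicate check and no test was possible.

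The proteasome degrades proteins tagged with ubiquitin. Its core particle stacks rings of alpha and beta subunits around the proteolytic sites, and the regulatory particle binds, unfolds and feeds in the substrate, with the ATPases in its base and the deubiquitinase in its lid. In yeast, Rpn4 activates the subunit genes together through a promoter element called PACE and is itself destroyed by the proteasome, which closes a feedback loop, and Rpn4 activity is known to rise when unimported mitochondrial proteins gather in the cytosol.

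The PACE element GGTGGCAAA stood in the 300 bases before the coding start, on either strand, in 27 of the 36 genes (75.0%), against 72 of all 5988 genes searched (1.202%). It was found for 12 of 14 core, 8 of 10 base and 7 of 9 lid genes. Matched genes were ranked by how often they were among the highest or lowest in the 5 comparisons below. The first 7 were so in 3 to 5 comparisons, except PRE9 in 2, taken by gene name from several tied there. Windows are shown for these 7 genes. Each is 49 bases of the RefSeq R64 genome, written 5′ to 3′ on the strand of the gene, with the element in capitals; TTTGCCACC is the same element on the opposite strand.
PUP3 (chrV:349501-349549, minus strand): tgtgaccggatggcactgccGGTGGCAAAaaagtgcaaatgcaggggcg
RPN2 (chrIX:220791-220839, minus strand): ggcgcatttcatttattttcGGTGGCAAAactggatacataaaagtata
PRE2 (chrXVI:732174-732222, plus strand): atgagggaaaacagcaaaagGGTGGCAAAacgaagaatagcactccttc
RPN12 (chrVI:252388-252436, plus strand): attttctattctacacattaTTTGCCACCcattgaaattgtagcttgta
RPT4 (chrXV:813792-813840, minus strand): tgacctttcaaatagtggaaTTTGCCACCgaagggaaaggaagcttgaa
SCL1 (chrVII:475327-475375, minus strand): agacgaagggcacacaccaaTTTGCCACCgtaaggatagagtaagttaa
PRE9 (chrVII:761213-761261, plus strand): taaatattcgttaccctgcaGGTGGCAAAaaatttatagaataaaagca

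The elements began 84 to 183 bases before the coding start, with a median of 120.0 bases, and 19 lay on the strand of the gene and 8 on the opposite strand. PUP3 held the farthest element and RPT6 the nearest. The 9 genes without a match were PRE5, PUP1, RPN10, RPN13, RPN8, SEM1, UMP1, BLM10 and RPN4. For 6 of these, PRE5, PUP1, RPN10, RPN13, RPN8 and SEM1, the window held the element with 1 mismatch, as it did in 7.72% of all genes searched (462, the exact matches included). Outside the proteasome set 45 of 5952 genes (0.756%) held the exact element, among them CDC48, UBA1, UBI4, ECM29 and YAP1, which recur in the lists of related genes below.

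**Figure D1:**
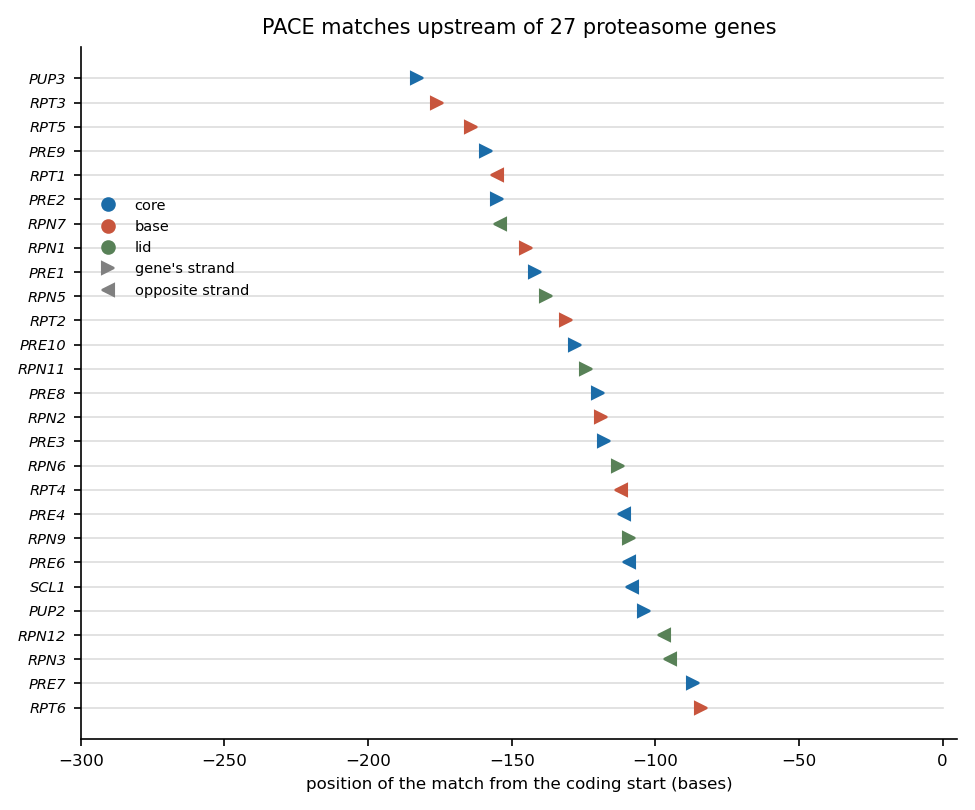
Position of the PACE element before the coding start (x axis, bases) for the 27 proteasome genes that hold it, 1 gene per row; arrowheads point right for the strand of the gene and left for the opposite strand, and colours give the core, base and lid. All matches fall between 84 and 183 bases before the start.

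RPN4 has no PACE match of its own. The Yap1 element TTACTAA, searched on both strands of the 500 bases before the coding start, occurred once there, 374 bases upstream, as it did at least once in 705 of 5988 genes (11.8%). Yap1 is known to activate RPN4 in yeast under oxidative stress, and the window is shown with that element in capitals.
RPN4 (chrIV:417056-417102, minus strand): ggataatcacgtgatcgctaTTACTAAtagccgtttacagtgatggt

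RNA-seq libraries held 4694951 to 5367091 reads and RPF libraries 1101458 to 2300792, the fewest in msp1delta. MSP1 and PEX19 were each listed at 1 read, the lowest value the files give, in every library of the strains that lack them and at 104 to 731 reads in every other library. All 36 proteasome genes passed the minimum of a mean of 50 reads in both assays, as did 3737 genes in all. The lowest single value among them was 60 RPF reads, for SEM1 in msp1delta. No proteasome gene had a near-identical copy among the annotated coding sequences (at least 90% identity over 100 bases) or overlapped another annotated coding gene. PRE3 has 2 coding exons and the other 35 genes have 1. Values below are densities, in RPKM computed from scaled reads and coding length, and log2 ratios of scaled reads between genotypes. The 95% intervals are exact (Clopper-Pearson for shares and ratios of reads, Poisson for single densities, conditional odds ratio for ratios of translational efficiency). They cover counting error only, since each genotype and assay has 1 library. Reads copied by PCR were not marked by molecule, so the intervals can be too narrow even for counting error. All values are relative to the other genes of a library, so a change shared by all genes does not show. Each culture was read as a whole, so lower transcript levels in every cell and a shift in the mix of cell states cannot be told apart.

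The proteasome genes took nearly the same share of each RNA-seq library. They held 0.743% of reads in msp1delta, 0.747% in pex19delta, 0.749% in msp1delta pex19delta and 0.746% in wild type. In the RPF libraries they held 0.739% (95% interval 0.723 to 0.755) in msp1delta, 0.733% (0.722 to 0.744) in pex19delta, 0.788% (0.774 to 0.801) in msp1delta pex19delta and 0.768% (0.757 to 0.780) in wild type. The RPF shares of both strains with a single deletion thus lay below wild type by more than counting error, and their intervals overlapped each other. For a typical proteasome gene the highest of the 4 genotypes was 1.23-fold the lowest in RNA (median; range 1.08 to 1.55) and 1.19-fold in RPF (1.05 to 2.32). The same medians were 1.25 and 1.34 over all measured genes with mean counts within the range of the proteasome genes. Single genes, described below, moved more.

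The core particle needs its 14 subunits in equal copies, and its genes were read at similar densities in each library. The SD of log2 RNA density over the 14 genes was 0.231 in msp1delta, 0.345 in pex19delta, 0.214 in msp1delta pex19delta and 0.208 in wild type. The SD of log2 RPF density was 0.255, 0.225, 0.251 and 0.306 in the same genotypes. Over all measured genes with a coding length (3733), the SD averaged 1.41 in RNA and 1.99 in RPF. The widest RNA spread was thus in pex19delta, which had the narrowest RPF spread. The highest core subunit was read 1.86- to 2.17-fold above the lowest in RPF, depending on the genotype.

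PRE9, the alpha subunit that yeast can live without, had the lowest RPF density of the core in every genotype. It stood at 139.8 in msp1delta, 178 in pex19delta, 201 in msp1delta pex19delta and 157 in wild type, while its RNA density was 228, 229, 229.5 and 213 and lay close to the core median. PRE8, another alpha subunit, had the lowest RNA density of the core everywhere (155 in msp1delta, 149.8 in pex19delta, 169 in msp1delta pex19delta and 146 in wild type). Its RPF density was 215, 233, 248 and 216, close to the core median. The order of the RNA levels was therefore not that of the RPF levels for either gene. At the upper end of the RPF densities, PUP3, PRE7 and PRE2, all beta subunits, averaged 0.40, 0.36 and 0.35 above the core median on the log2 scale over the 4 genotypes. PRE2 carries the chymotrypsin-like active site. PRE10 and PRE8 followed PRE9 at the lower end, at averages of -0.14 and -0.09.

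**Figure D2:**
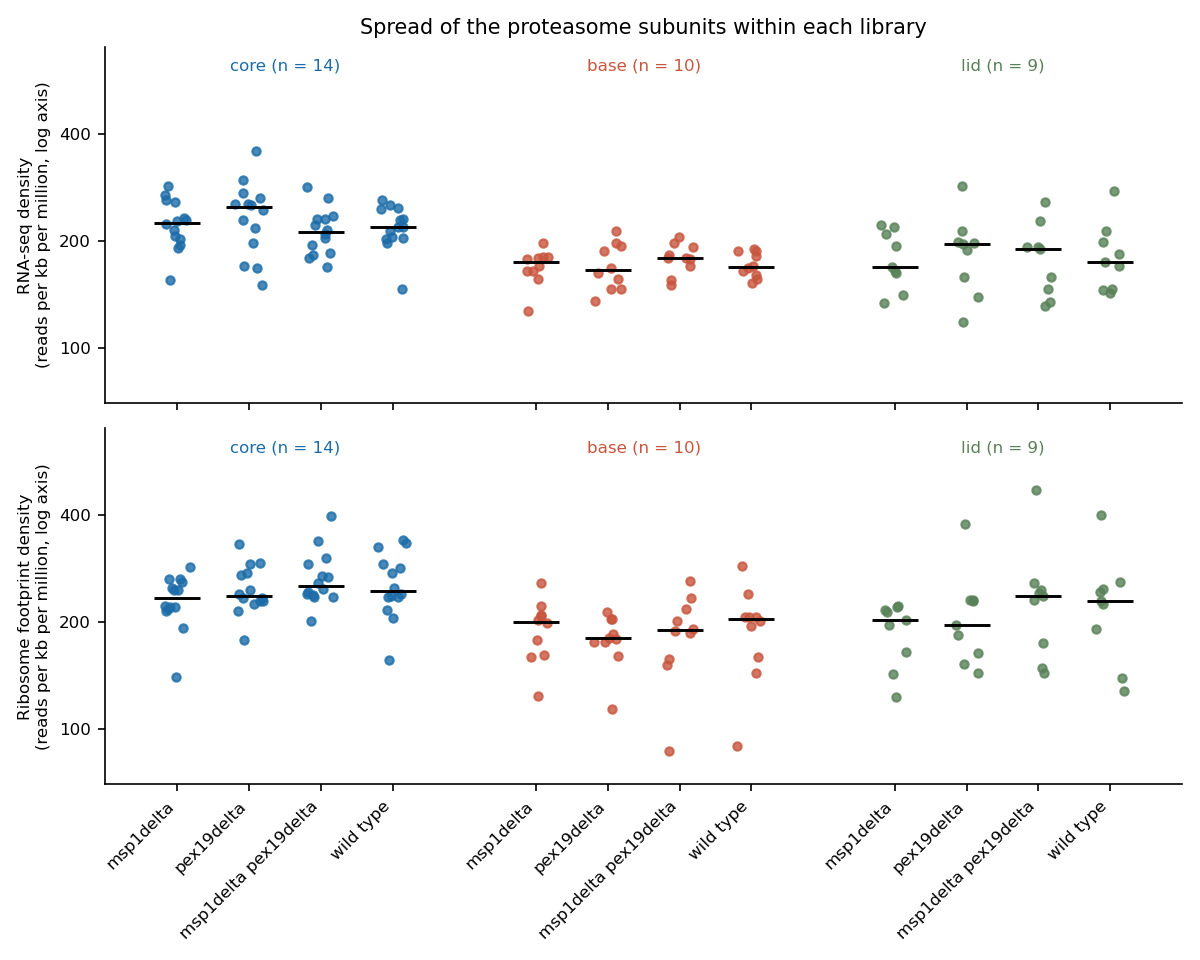
RNA-seq density (upper panel) and ribosome footprint density (lower panel), in RPKM on a log axis, of the core, base and lid subunits in msp1delta, pex19delta, msp1delta pex19delta and wild type. Each point is 1 gene, bars are medians, and points are spread sideways for visibility; the lowest base point in the lower panel is RPN2 in every genotype, and the highest lid point is SEM1 in all but msp1delta.

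The base had the most even RNA of the 3 subcomplexes. The SD of its log2 RNA density was 0.170 in msp1delta, 0.218 in pex19delta, 0.143 in msp1delta pex19delta and 0.115 in wild type, and that of its RPF density was 0.298, 0.256, 0.441 and 0.461. RPN2, a large scaffold subunit, set much of the RPF spread. It had the lowest RPF density of the base in each genotype (124 in msp1delta, 114 in pex19delta, 86.8 in msp1delta pex19delta and 89.7 in wild type), although its RNA density (179, 213, 169.5 and 188) was at or above the base median in all but msp1delta pex19delta. Without the subunit farthest from the median in each library, the mean RPF SD of the base was 0.224, against 0.364 with all 10. RPT4, an ATPase, had the highest RPF density of the base everywhere, with 258 in msp1delta, 214 in pex19delta, 260.1 in msp1delta pex19delta and 288 in wild type. Next to these extremes, RPT2, an ATPase, and RPN10, a ubiquitin receptor, averaged 0.17 and 0.15 above the base median in RPF. RPN1, the other large scaffold, and RPT3, an ATPase, averaged -0.24 and -0.21. Across all measured genes RPF density over RNA density was lower for longer genes (Spearman -0.70 to -0.76, depending on the genotype). The part of length in the RPF spread of the base, and of the lid below, was not tested.

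The lid was the least even. The SD of log2 density was 0.269 in msp1delta, 0.369 in pex19delta, 0.335 in msp1delta pex19delta and 0.310 in wild type for RNA, and 0.309, 0.424, 0.513 and 0.491 for RPF. SEM1, the smallest subunit with a coding sequence of 270 bases, had the highest RNA density of the lid in all 4 genotypes. Its RPF density was also the highest in pex19delta, msp1delta pex19delta and wild type, but in msp1delta it stood at 202, and RPN12 led with 221. RPN9 and RPN3, structural lid subunits, had the lowest RPF densities, averaging -0.66 and -0.58 from the lid median. RPN11, the deubiquitinase, averaged 0.12 above that median in RPF and -0.27 from it in RNA. As another complex of equal subunits, the CCT chaperonin (8 genes) had a mean SD of 0.245 in RNA and 0.205 in RPF, against 0.249 and 0.259 for the core. Densities of short genes depend on the length used: with a length 50 bases shorter, the one the authors' own normalised values imply, the mean lid SD was 0.373 in RNA and 0.489 in RPF, against 0.321 and 0.434 with the full coding length.

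The core was read above the regulatory particle in all libraries. The ratio of the median core density to the median density of the 19 base and lid genes was 1.32 in msp1delta, 1.32 in pex19delta, 1.18 in msp1delta pex19delta and 1.28 in wild type for RNA. For RPF it was 1.15, 1.28, 1.25 and 1.18. No genotype was the highest or the lowest in both assays.

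In msp1delta the proteasome RNAs lay near wild type. The median log2 ratio of the 36 genes in msp1delta over wild type was 0.02 (all measured genes -0.0025), with an SD of 0.138 (all genes 0.261), and 20 genes were above 0 and 16 below. At least 1.2-fold higher was 1 gene, UMP1, and at least 1.2-fold lower were 2, RPN6 and SEM1, against 9.69% of all measured genes higher and 9.79% lower. No proteasome gene passed 1.5-fold in RNA, against 1.79% of all genes. In RPF the median was -0.10 (all genes 0.01), with 12 genes above 0 and 24 below. Past 1.2-fold, 2 genes were higher and 8 lower, against 27.8% and 26.1% of all genes, so the lower share was near the background and the higher share under it. Past 1.5-fold in RPF there was 1 proteasome gene, SEM1, against 18.4% of all genes.

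SEM1 had the largest departure of any proteasome gene in msp1delta. Its RNA density was 221 in msp1delta, 285 in pex19delta, 256 in msp1delta pex19delta and 276 in wild type, and its RPF density was 202, 378, 469 and 399.8. The msp1delta RPF library stood apart from the other 3, whose values ranged from 378 to 469. Its log2 ratio in msp1delta over wild type was -0.32 in RNA (95% interval -0.54 to -0.10) and -0.98 in RPF (-1.43 to -0.57), from 60 RPF reads in msp1delta and 227 in wild type. Short genes as a group were lower in that RPF library: across all measured genes the RPF ratio of msp1delta to wild type had a Spearman correlation of 0.312 with coding length, and across the 36 proteasome genes 0.414, as a description. With the trend on coding length removed, the RPF ratio of SEM1 was -0.59.

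The other 7 genes lower in RPF in msp1delta were PUP2, PUP3 and PRE2 of the core, RPT1 and RPN13 of the base, and RPN6 and RPN8 of the lid, at -0.27 to -0.51. With the length trend removed, 3 of these 7 were no longer past 1.2-fold: RPN13 at -0.12, PUP3 at -0.23 and RPN8 at -0.2619. PUP2, PRE2, RPT1 and RPN6 stayed past it, at -0.28 to -0.43. PUP2, an alpha subunit, had an RPF density of 193 in msp1delta, 246 in pex19delta, 235 in msp1delta pex19delta and 275 in wild type, with RNA at 223, 217, 209 and 204. Its RPF was lowest in msp1delta. Its RNA was highest there, but within counting error of wild type, at a log2 ratio of 0.13 (-0.01 to 0.26). RPN6, which clamps the lid to the core, was the lower gene with the same size in both assays, at -0.27 in RNA (-0.39 to -0.16) and -0.30 in RPF (-0.51 to -0.10). RPN13, a ubiquitin receptor, was at -0.26 and -0.37, with an RPF interval of -0.75 to 0.01. PUP3 and RPT1, an ATPase, were at 0.00009 and -0.07 in RNA, with RPF ratios of -0.39 (-0.65 to -0.14) and -0.35 (-0.57 to -0.14).

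RPT3 and RPN2 were the 2 genes higher in RPF in msp1delta. RPT3 had an RPF density of 203 in msp1delta, 179 in pex19delta, 151 in msp1delta pex19delta and 144 in wild type. Both single deletions lay above wild type, and msp1delta pex19delta was close to wild type. The log2 ratio was 0.50 in msp1delta (0.27 to 0.72) with an RNA ratio of 0.12. RPN2, whose densities are given above, had an RPF ratio of 0.46 (0.27 to 0.65) and an RNA ratio of -0.07. SCL1, RPN3 and RPN1 came next by the mean of both assays, with RNA ratios of 0.12, 0.18 and 0.06 and RPF ratios of 0.17, 0.04 and 0.16.

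**Figure D3:**
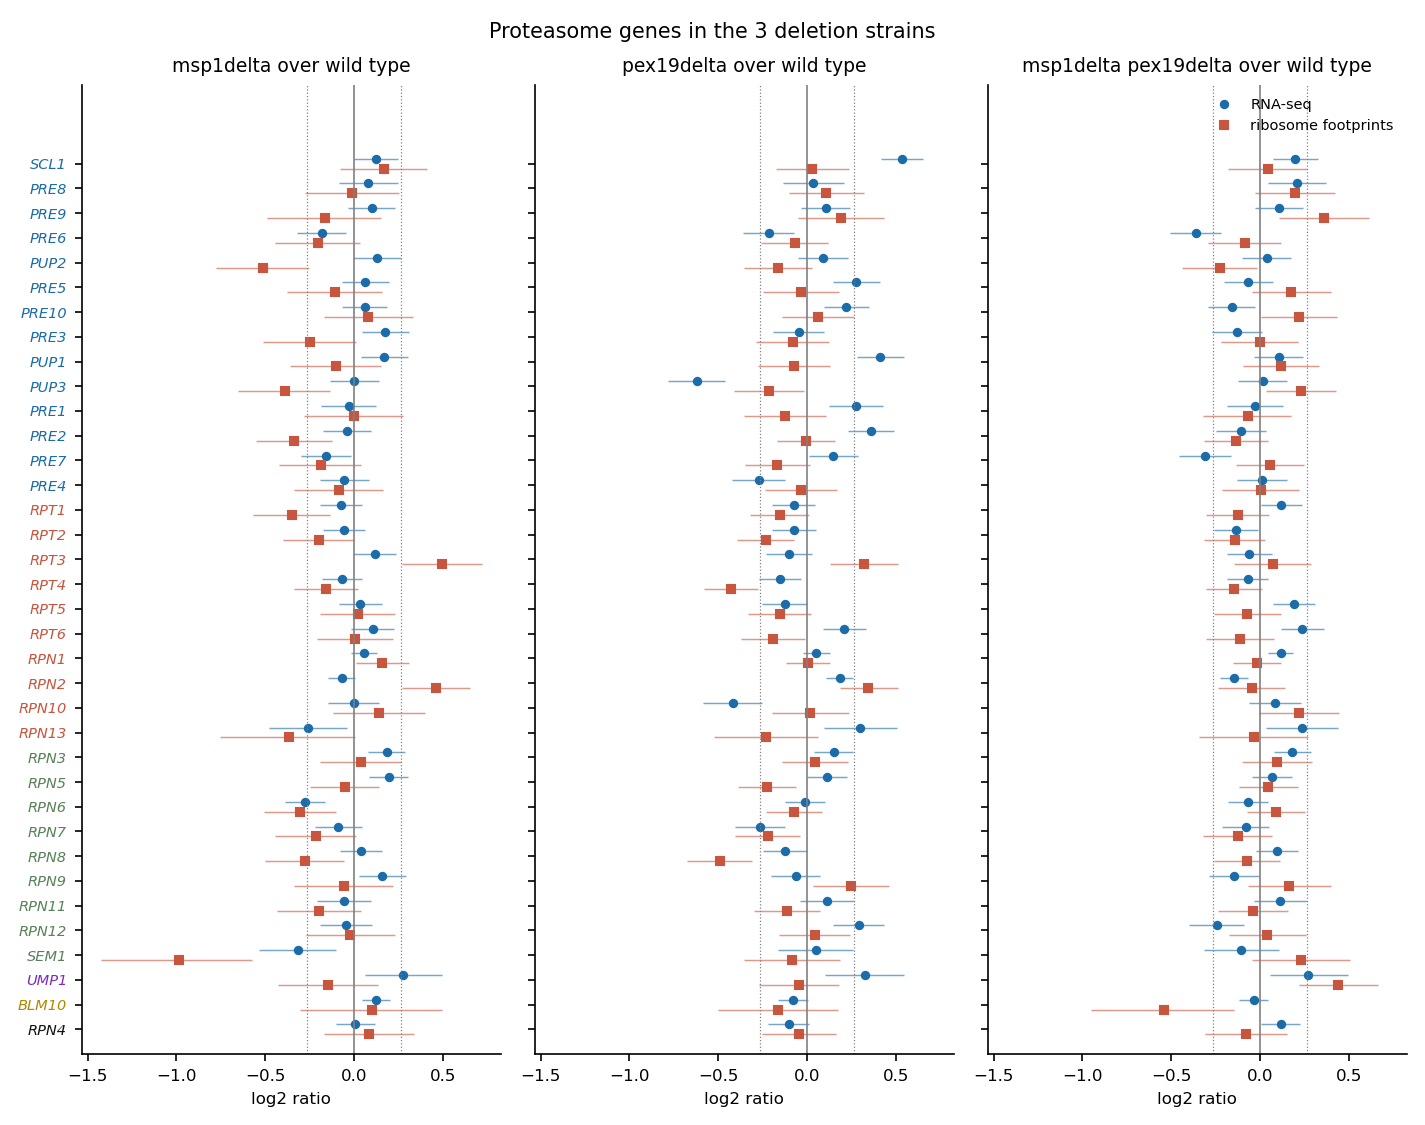
Log2 ratio of each proteasome gene in msp1delta, pex19delta and msp1delta pex19delta over wild type (x axes), RNA-seq as circles and ribosome footprints as squares, with 95% counting intervals; dotted lines mark 1.2-fold, and gene names are coloured by subcomplex as in the density plot, with UMP1, BLM10 and RPN4 last. SEM1 in msp1delta footprints (-0.98) and PUP3 in pex19delta RNA (-0.62) are the 2 points past 1.5-fold.

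In pex19delta the RNA ratios were spread more widely than in the other strains, over the proteasome set and over all genes alike. The median of the 36 genes was 0.05 in RNA (all genes 0.01) with an SD of 0.240 (all genes 0.383), and 20 were above 0. Past 1.2-fold, 8 genes were higher (SCL1, PRE5, PUP1, PRE1 and PRE2 of the core, RPN13, RPN12 and UMP1) and 3 lower (PUP3, PRE4 and RPN10), against 19.8% and 19.7% of all genes, so the higher share was near the background and the lower share under it. With the length trend removed, PRE5, PRE1 and RPN13 were no longer past it, at 0.24, 0.24 and 0.25. Past 1.5-fold there was 1, PUP3, against 9.15% of all genes. In RPF the median was -0.07 (all genes 0.0067), 11 genes were above 0 and 25 below, and 2 were past 1.2-fold higher and 2 lower, against 18.0% and 15.3% of all genes. No proteasome gene passed 1.5-fold in RPF, against 4.79% of all genes. None of the 11 genes past 1.2-fold in RNA was past it in RPF, while 548 of the 1476 measured genes past it in RNA were (37.1%, either direction in each assay). Whatever their RNA, 4 of the 36 genes were past it in RPF, against 18.0% higher and 15.3% lower of all genes. With so few, little overlap is to be looked for, and the contrast was not tested.

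PUP3, a beta subunit without proteolytic activity, had an RNA density of 261 in msp1delta, 169.6 in pex19delta, 263 in msp1delta pex19delta and 261 in wild type. The pex19delta value was alone, the other 3 agreeing within counting error. Its RPF density was 259, 293, 398 and 339. In pex19delta the log2 ratio was -0.62 in RNA (-0.78 to -0.46) and -0.21 in RPF (-0.41 to -0.02).

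SCL1, an alpha subunit, was the highest RNA in pex19delta, with a density of 269 in msp1delta, 357 in pex19delta, 283 in msp1delta pex19delta and 247 in wild type. Its RPF density was 264, 239.7, 242 and 235, and the pex19delta ratios were 0.53 in RNA (0.41 to 0.65) and 0.03 in RPF (-0.18 to 0.23). PUP1, the beta subunit with the trypsin-like site, was at 0.41 in RNA and -0.07 in RPF. PRE2 was at 0.36 and -0.01, and RPN12, a lid subunit, at 0.29 and 0.04. RPN10 went the other way, at -0.42 in RNA (-0.58 to -0.26) and 0.02 in RPF (-0.20 to 0.23). These 5 genes differed from wild type by more than counting error in RNA but not in RPF.

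In RPF the lower genes in pex19delta were RPN8, the lid partner of the deubiquitinase, and RPT4. RPN8 had an RPF density of 214 in msp1delta, 184 in pex19delta, 246 in msp1delta pex19delta and 259 in wild type, and RNA at 219, 195, 227 and 213. Its pex19delta ratio was -0.49 in RPF (-0.68 to -0.31) and -0.12 in RNA. RPT4 was at -0.43 in RPF (-0.58 to -0.28) and -0.15 in RNA. The higher genes were those of msp1delta, with RPN2 at 0.35 in RPF (0.18 to 0.51) and 0.18 in RNA, and RPT3 at 0.32 (0.13 to 0.51) and -0.10. Both comparisons use the same wild-type libraries. RPN7, a lid subunit, was at -0.26 in RNA and -0.22 in RPF.

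With both genes deleted, the RPF median of the proteasome set lay near 0 and the RNA spread lay between those of the single deletions, in the set and over all genes. In msp1delta pex19delta over wild type the median was 0.01 in RNA (all genes -0.01) and 0.0013 in RPF (all genes 0.0076), with SDs of 0.158 and 0.180 (all genes 0.302 and 0.293). In RNA 19 genes were above 0, and in RPF 18. Past 1.2-fold in RNA, UMP1 was higher and PRE6 and PRE7 were lower, against 9.61% and 11.5% of all genes. In RPF, PRE9 and UMP1 were higher and BLM10 lower, against 15.0% and 11.6%. No gene passed 1.5-fold in either assay, against 2.27% of all genes in RNA and 3.13% in RPF.

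PRE6, an alpha subunit, had RNA densities of 202 in msp1delta, 197 in pex19delta, 178 in msp1delta pex19delta and 229 in wild type, all 3 deletions below wild type. The ratio in msp1delta pex19delta was -0.36 in RNA (-0.51 to -0.22) and -0.09 in RPF (-0.29 to 0.12). PRE7, a beta subunit, was at -0.31 in RNA (-0.46 to -0.17) and 0.05 in RPF. PRE9 was at 0.11 in RNA and 0.36 in RPF (0.11 to 0.61), which brought its RPF density to the highest of the 4 genotypes. PRE8, RPN10, RPN3 and PUP3 were the next highest, with RNA ratios of 0.21, 0.08, 0.18 and 0.01 and RPF ratios of 0.20, 0.22, 0.09 and 0.23. RPT2, PRE2 and RPT4 were the next lowest, between -0.07 and -0.15 in both assays.

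The strain lacking both genes was also set against each strain lacking 1 of them. Over pex19delta, 4 genes were past 1.2-fold higher in RNA and 9 lower, against 20.7% and 22.6% of all genes, and 6 higher and 2 lower in RPF, against 17.5% and 17.0%. PUP3 was at 0.63 in RNA (0.47 to 0.80) and 0.44 in RPF (0.24 to 0.64), and RPN2 at -0.33 (-0.41 to -0.25) and -0.39 (-0.57 to -0.22). RPN12 and PRE2 were at -0.54 and -0.47 in RNA, and RPN10 was at 0.50 (0.34 to 0.67). Core genes made up 7 of the 9 lower in RNA. PUP1 and PRE1 were among them, at -0.31 and -0.30, and at -0.2625 and -0.23 with the length trend removed. The RNA median was -0.22 for the core, 0.05 for the base and -0.04 for the lid (all genes -0.02). In RPF 11 of 14 core, 7 of 10 base and 7 of 9 lid genes were above 0, against 50.0% of all genes. UMP1 was at -0.05 in RNA and 0.48 in RPF (0.27 to 0.70), BLM10 at 0.04 and -0.38 (-0.79 to 0.02; -0.24 with the length trend removed), and RPN4 at 0.22 (0.10 to 0.34) and -0.03.

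Over msp1delta, 1 gene was past 1.2-fold higher in RNA, RPN13, and 2 lower, PRE3 and RPN9, against 9.93% and 12.6% of all genes. In RPF 8 were higher and 3 lower, against 27.3% and 27.4%. SEM1 was at 1.21 in RPF (0.80 to 1.66), PUP3 at 0.62 (0.36 to 0.88), PRE9 at 0.52 (0.21 to 0.85) and RPN6 at 0.39 (0.18 to 0.60). RPN2 was at -0.51 (-0.71 to -0.31) and RPT3 at -0.42 (-0.66 to -0.19). These RPF ratios ran against coding length across the 36 genes (Spearman -0.651, a description), and with the length trend removed SEM1 was at 0.79 and UMP1, at 0.58 before, was at 0.30. BLM10, at -0.64 (-1.10 to -0.19), was at -0.39 with the trend removed. RPN4 was at 0.11 in RNA and -0.16 in RPF (-0.43 to 0.10). Both comparisons share the msp1delta pex19delta libraries. Each also shares the libraries of its single deletion with that strain's comparison to wild type. A departure of such a library enters both comparisons, with opposite signs. PUP3 RNA was at 0.63 over pex19delta and at -0.62 in pex19delta over wild type. SEM1 RPF was at 1.21 over msp1delta and at -0.98 in msp1delta over wild type.

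UMP1, the maturation factor that is degraded as the core is completed, had RNA densities of 163 in msp1delta, 169 in pex19delta, 163 in msp1delta pex19delta and 135 in wild type. All 3 deletions were above wild type, with log2 ratios of 0.28 (0.06 to 0.49), 0.32 (0.10 to 0.55) and 0.27 (0.05 to 0.49), and the 3 comparisons share the wild-type library. Its RPF density was 311.5 in msp1delta, 334 in pex19delta, 467 in msp1delta pex19delta and 344 in wild type. The RPF ratios were -0.14 (-0.43 to 0.14), -0.04 (-0.27 to 0.18) and 0.44 (0.22 to 0.66), so msp1delta pex19delta alone stood above wild type in both assays.

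BLM10, a large activator that caps the core in place of the regulatory particle, had the lowest density of the set in every library. Its RNA density was 77.9 in msp1delta, 67.8 in pex19delta, 69.8 in msp1delta pex19delta and 71.6 in wild type, and its RPF density 11.8, 9.87, 7.60 and 11.0. The ratio in msp1delta pex19delta was -0.04 in RNA and -0.54 in RPF (-0.95 to -0.15), from 82 RPF reads in that strain and 149 in wild type. The RPF ratios of the single deletions were 0.10 in msp1delta and -0.16 in pex19delta, with intervals that include 0.

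RPN4 lay near wild type in every deletion strain. Its RNA density was 156 in msp1delta, 145 in pex19delta, 168 in msp1delta pex19delta and 155 in wild type, and its RPF density 115, 106, 103 and 109. The RNA ratios were 0.01 (-0.10 to 0.12), -0.10 (-0.22 to 0.01) and 0.12 (0.01 to 0.23), and the RPF ratios were 0.09 (-0.17 to 0.34), -0.04 (-0.26 to 0.17) and -0.08 (-0.31 to 0.15). All 6 values were within 1.2-fold, and 1 interval, RNA in msp1delta pex19delta, lay above 0. These are mRNA and ribosome values; the level of the Rpn4 protein, which turns over fast, was not measured here. Split by PACE, the 27 genes with the element had median RNA ratios of 0.00009 in msp1delta, 0.05 in pex19delta and -0.03 in msp1delta pex19delta, and the 9 without it 0.04, 0.05 and 0.09. In RPF the medians were -0.09, -0.07 and -0.0023 with the element and -0.11, -0.07 and 0.12 without it.

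**Figure D4:**
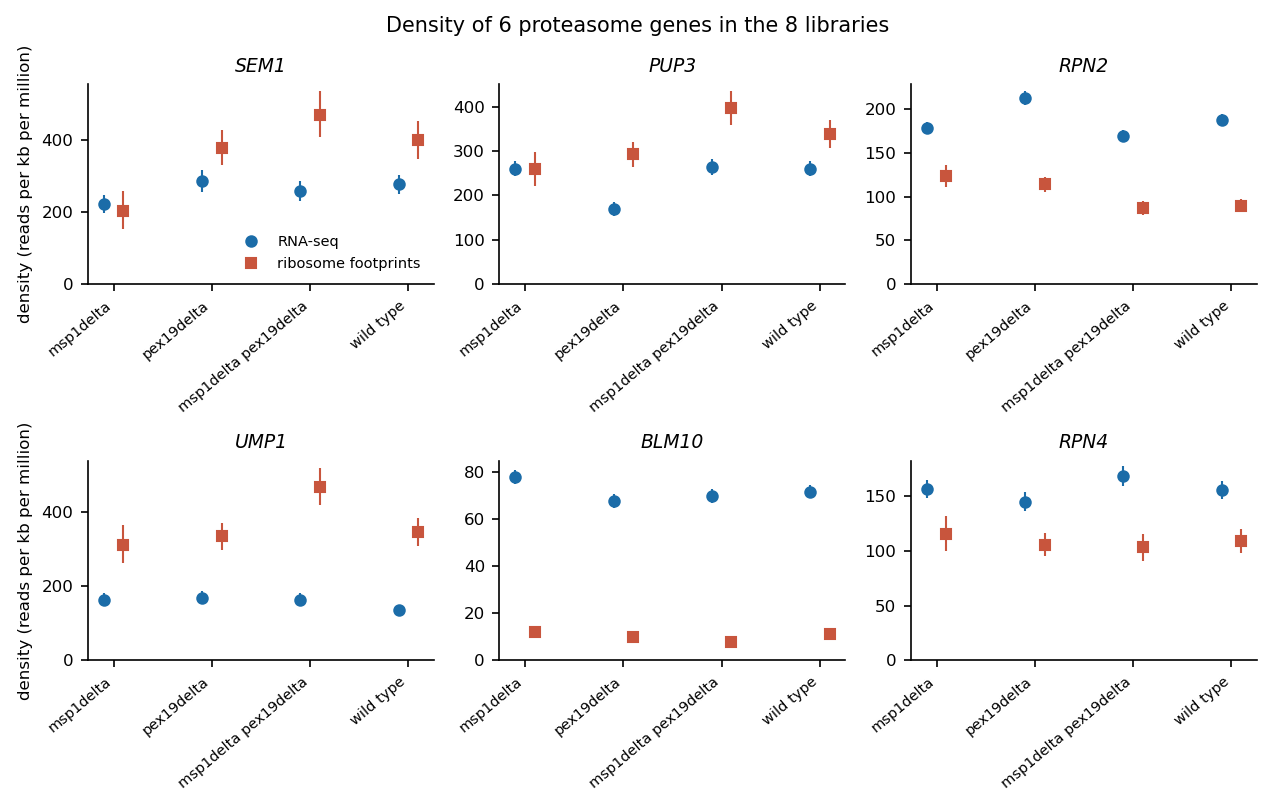
Density of SEM1, PUP3, RPN2, UMP1, BLM10 and RPN4 in RNA-seq (circles) and ribosome footprints (squares), in RPKM, in msp1delta, pex19delta, msp1delta pex19delta and wild type; bars are exact 95% Poisson intervals for counting error, and each axis starts at 0. SEM1 footprints are lowest in msp1delta (202), PUP3 RNA is lowest in pex19delta (169.6), and RPN4 is level.

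Translational efficiency, the RPF density over the RNA density of a gene, was higher for proteasome genes than for the median gene. The median log2 value of the 36 genes was 0.13 in msp1delta, 0.18 in pex19delta, 0.21 in msp1delta pex19delta and 0.29 in wild type, against -0.26, -0.29, -0.27 and -0.31 over all measured genes. Of the 36, 30, 28, 31 and 32 lay above the median of all genes. In these libraries efficiency was lower for longer genes (Spearman -0.70 in msp1delta, -0.70 in pex19delta, -0.76 in msp1delta pex19delta and -0.73 in wild type across all genes), and the part of length in the difference was not tested. BLM10, with 6432 coding bases the longest of the set, had -2.72 in msp1delta (-3.06 to -2.41), -2.78 in pex19delta, -3.20 in msp1delta pex19delta and -2.70 in wild type. These values lay at or below the 1.74th percentile of all genes. UMP1 had the highest of the set, with 0.93, 0.98, 1.52 and 1.35. RPN2 was at -0.53, -0.90, -0.97 and -1.06, and RPN4 at -0.44, -0.45, -0.71 and -0.51.

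**Figure D5:**
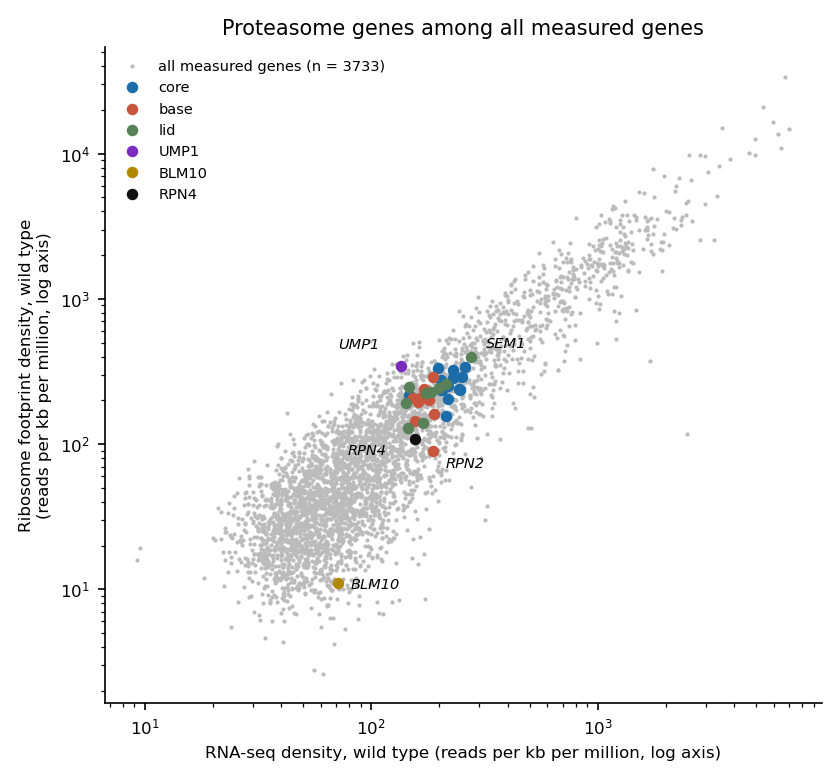
Ribosome footprint density against RNA-seq density in wild type, both in RPKM on log axes, for 3733 measured genes with a coding length (grey) and the 36 proteasome genes (coloured). The proteasome subunits form a compact group, with BLM10 (71.6 in RNA, 11.0 in footprints) and RPN2 (188 and 89.7) lying low and UMP1 (135 and 344) lying high.

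Relative to wild type, the median efficiency ratio of the 36 genes was -0.10 in msp1delta, -0.12 in pex19delta and -0.01 in msp1delta pex19delta, against 0.01, 0.02 and 0.02 over all genes. The exact 95% interval of the ratio lay below 0 for 9 genes in msp1delta and above 0 for 2, against 19.4% below and 19.4% above of all measured genes. It lay below 0 for 13 and above 0 for 4 in pex19delta, against 20.3% and 20.0% of all genes. In msp1delta pex19delta it lay below 0 for 5 and above 0 for 5, against 9.95% and 12.3%. How often an interval leaves out 0 depends on the reads of a gene as well as on its ratio. The lowest in msp1delta were SEM1 at -0.67 (-1.16 to -0.20), PUP2 at -0.64 (-0.94 to -0.35) and PRE3, which carries the caspase-like site, at -0.42, and the highest was RPN2 at 0.53 (0.33 to 0.74). In pex19delta the lowest were RPN13 at -0.53, SCL1 at -0.51 and PUP1 at -0.49, and the highest RPN10 at 0.44, RPT3 at 0.42 and PUP3 at 0.41. In msp1delta pex19delta the lowest was BLM10 at -0.50, then RPT6, an ATPase, at -0.35, and the highest were PRE10, an alpha subunit, at 0.38, PRE7 at 0.37 and SEM1 at 0.34. Across the 36 genes the RNA and RPF ratios to wild type had Pearson correlations of 0.44 in msp1delta, 0.21 in pex19delta and 0.15 in msp1delta pex19delta, against 0.28, 0.30 and 0.44 across all 3737 genes, as a description across genes.

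The genes that build, regulate and supply the proteasome had list medians within 0.16 of 0 in log2 ratio to wild type. Of 15 assembly chaperones and associated factors, 12 were measured, and their median RNA ratios were 0.11 in msp1delta, -0.05 in pex19delta and 0.02 in msp1delta pex19delta, with RPF medians of 0.12, -0.0026 and 0.07. Past 1.2-fold in RPF there were 5 higher and 3 lower in msp1delta, 3 higher and 1 lower in pex19delta, and 3 higher and 2 lower in msp1delta pex19delta, and in RNA 2 and 1, 3 and 4, and 1 and 1. The shares of all genes in RPF were 27.8% higher and 26.1% lower in msp1delta, 18.0% and 15.3% in pex19delta, and 15.0% and 11.6% in msp1delta pex19delta, and in RNA 9.69% and 9.79%, 19.8% and 19.7%, and 9.61% and 11.5%. With 12 genes, the 3 lower in msp1delta RPF were at that background. SPG5, known in yeast for proteasome assembly in stationary phase, was at 0.28 in RNA and 0.64 in RPF in msp1delta, and PBA1, a core assembly chaperone, at 0.15 and 0.70. HSM3, a base assembly chaperone, was at 0.22 and 0.52 in msp1delta and at -0.62 and -0.18 in pex19delta. ADD66, the partner of PBA1, was at 0.25 and 0.58 in msp1delta pex19delta.

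Of 7 genes tied to Rpn4 control, 6 were measured, with median RNA ratios of 0.01 in msp1delta, -0.09 in pex19delta and 0.02 in msp1delta pex19delta and RPF medians of 0.16, -0.06 and 0.09. Past 1.2-fold in RPF there were 2 higher and 1 lower, 2 and 1, and 1 and 1, and in RNA 0 and 1, 0 and 2, and 0 and 0, the shares of all genes being those given for the chaperones. RAD6, the ubiquitin-conjugating enzyme that acts on Rpn4, was at -0.28 in RNA and -0.28 in RPF in msp1delta, at -0.55 and -0.37 in pex19delta, and at 0.03 and -0.44 in msp1delta pex19delta. YAP1 was within 0.09 of 0 in all 6. All 11 genes of ubiquitin supply and delivery were measured, with RNA medians of -0.0082, 0.07 and 0.0083 and RPF medians of -0.16, -0.15 and 0.03 in the same order. In msp1delta 10 of the 11 were below 0 in RPF and in pex19delta 8, against 48.9% and 49.0% of all genes, and past 1.2-fold in RPF 0 were higher and 2 lower, 0 and 3, and 1 and 2, with 1 and 1, 2 and 0, and 1 and 0 in RNA. The 2 and 3 genes lower in RPF in msp1delta and pex19delta stand against 26.1% and 15.3% of all genes. Farthest from 0 by the mean of both assays was DOA4 in msp1delta, at 0.16 in RNA and -0.97 in RPF, from 22 RPF reads. SHP1 was at 0.31 and 0.32 in msp1delta pex19delta. UFD1 was at -0.38 and -0.16 in msp1delta, and UBP14 at -0.07 and -0.36 in msp1delta pex19delta. UBI4, the polyubiquitin gene, was at 0.25 in RNA and -0.18 in RPF in msp1delta, with a mean of 0.04. Near-identical copies were not searched for genes outside the proteasome set.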

How the data were processed

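RNA-seq and RPF libraries came from the 8 samples described above; the reads were trimmed with cutadapt 1.8 and aligned with STAR 2.5 to sacCer3 (R64), per the submitters' processing notes. Neither the counting tool nor its strand setting is given in the sources used here. The authors' deposited read counts per gene, whole numbers per the file headers, entered all calculations, and no file lists a value under 1. The authors' deposited TPM values, length-scaled per the file headers, served as an alternative. The deposited RPM and RPKM columns of 1 file, per the file headers, were used only to read off a gene length 50 bases under the coding length (5716 of 5988 genes). Spike oligonucleotides are not used here. RNA-seq fragments were 19 to 40 bases and RPF fragments 19 to 33.

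TMM factors (edgeR 4.0.16 in R 4.3.3) were taken per assay over genes averaging 50 counts or more, and 1 read, in proportion to library size, was added before logs. Measured genes averaged 50 counts or more in both assays. Ratio intervals are exact conditional (binomial; for efficiency ratios the conditional odds ratio, scipy 1.17.1), at 95%. The ratios between genotypes and their intervals were tested on simulated counts that held counting error only. That simulation did not cover the density and efficiency intervals. Coding sequences and positions come from RefSeq R64. The members and lists were chosen with earlier results of these data known. RPN4, UMP1 and BLM10 are described throughout; other genes named are up to 5 highest and 5 lowest by the mean of both log2 ratios, up to 3 per direction by efficiency or density, up to 4 per related list, and those past 1.2-fold or 1.5-fold where few. Genes named as holding PACE outside the set, RPN11 and YAP1 were added after their values were seen. IRC25, POC4, ADC17 and PDR3 did not pass the minimum. Samples carry 1 replicate each; alternatives were other scalings, pseudocounts, gene filters, lengths and deposited TPM.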

Additional observations from a re-analysis of the deposited data

Results flagged for a closer look

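For 4 proteasome genes the RPF effect of losing MSP1 had opposite signs without and with PEX19, each by at least 1.2-fold. The log2 effect in the absence of PEX19 (msp1delta pex19delta over pex19delta) and in its presence (msp1delta over wild type) was 0.31 and -0.98 for SEM1, a difference of 1.30. It was 0.44 and -0.39 for PUP3, a difference of 0.83, and 0.42 and -0.27 for RPN8, a difference of 0.69. For RPN2 it was -0.39 and 0.46, a difference of -0.86. With the trend on coding length removed, RPN2 alone of the 4 stayed past 1.2-fold both ways, at -0.32 and 0.34. SEM1 was then at 0.10 and -0.59, PUP3 at 0.36 and -0.23, and RPN8 at 0.40 and -0.2619, each still with opposite signs. Past 1.2-fold both ways with opposite signs were then 1 of the 36 genes and 11.0% of all genes. With 1 library per genotype and assay these differences were not tested. Without that removal the same pattern held in 14.05% of all measured genes in RPF and 4.60% in RNA, where no proteasome gene showed it. Over all 36 genes, also without that removal, the difference had a median of 0.24 in RPF (all genes near 0, at -0.000019). In RNA it was -0.08 (all genes -0.0072). The SD of the RPF difference was 0.399 over the 36 genes and 0.596 over all genes.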

How the results depend on the processing

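No paired analysis was possible because each genotype and assay has 1 library, so no library could be left out either. No called value reversed its direction, while medians close to 0 could change sign, as printed here. Scaling by library totals gave median log2 ratios in RNA of -0.0060 for msp1delta and 0.0046 for pex19delta over wild type, -0.0024 for msp1delta pex19delta over pex19delta and 0.027 over msp1delta, with median efficiency ratios of -0.050 and -0.066 for msp1delta and pex19delta. TMM over all listed genes shifted the RPF median of all genes by -0.20 for msp1delta over wild type and 0.13 for msp1delta pex19delta over msp1delta. The proteasome medians became -0.30 and 0.26, with 21 genes past 1.2-fold in each, but relative to all genes stayed at -0.12 and 0.13. The same setting gave RPF medians of -0.067 for msp1delta pex19delta over wild type and 0.011 over pex19delta, and efficiency medians of -0.30 for msp1delta and -0.072 for msp1delta pex19delta. Removing the length trend, an alternative chosen after seeing the data, gave RNA medians of 0.034 for msp1delta pex19delta over wild type and -0.0069 over pex19delta. Under it, as under library totals (0.0114), the RNA median of msp1delta pex19delta lay farther from 0 than those of the single deletions (0.0157 and 0.0324 with the trend removed). Without the farthest subunit the mean SD of log2 density was 0.202 in RNA and 0.197 in RPF for the core, 0.131 and 0.224 for the base, and 0.273 and 0.320 for the lid. The lid SD was 0.373 and 0.489 with lengths 50 bases shorter, and 0.372 and 0.488 from the deposited TPM. Other alternatives were DESeq2 1.42.0 size factors, TMM without ribosomal protein genes and pseudocounts of 0.1 and 5. Filters at a mean of 10 or 200 counts, or none, were also used. None of these moved a proteasome median beyond counting error or a count beyond 1.5 times. The filters did move medians of all genes. Relative to these, the RPF median for msp1delta over wild type was -0.034 at 200 counts and -0.24 with no filter. For msp1delta pex19delta over msp1delta it was 0.053 and 0.25. In RNA, msp1delta pex19delta over pex19delta changed sign, from -0.030 to 0.031 at 200 counts. Depth limits SEM1, RPN13 and BLM10 most, each with under 100 RPF reads in at least 1 library.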
